A study of Mus musculus with 15 samples.

Results

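The vascular endothelial growth factor (VEGF) ligands and their receptors were followed through RNA immunoprecipitation and sequencing (RIP-seq) of the RNA-binding protein Arid5a. The family was taken as 9 of the 25239 genes in the deposited table, matched by symbol: the 5 ligands Vegfa, Vegfb, Vegfc, Vegfd and Pgf, and the 4 receptor genes Flt1, Kdr, Nrp1 and Nrp2. The family was chosen by the measured values of Vegfa, whose mRNA rose with IL-17 more in the Arid5a precipitate than in the IgG precipitate. The pattern of Vegfa over the 4 groups is therefore described below without a test, and the other members were tested.

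The cells were ST2, a mouse stromal line from bone marrow. They received medium alone or IL-17 at 200 ng/mL, a cytokine that acts on stromal cells, and were fixed after 3 h with 1% formaldehyde. Arid5a antibody or, as the control, mouse IgG2b was used for the precipitation. This gave 4 IgG libraries in medium, 4 Arid5a libraries in medium, 3 IgG libraries with IL-17 (numbered 2, 3 and 4) and 4 Arid5a libraries with IL-17. The model is 1 cell line, both antibodies were used on fixed lysate, and libraries of unprecipitated RNA were not analysed here. A difference between treatments in a precipitate can therefore come from the amount of an mRNA in the cells or from its recovery, and these cannot be told apart. Whether replicates came from separate cultures is not given, so p-values measure only the spread between these libraries.

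VEGF ligands are secreted dimers of the cystine-knot type. Vegfa drives the sprouting and permeability of blood vessels, mainly through the tyrosine kinase receptor that Kdr encodes, while the receptor encoded by Flt1 binds Vegfa tightly with weak kinase activity and also binds Vegfb and placental growth factor (Pgf). Vegfc and Vegfd act mostly on lymphatic vessels, and the neuropilins Nrp1 and Nrp2 are co-receptors that also bind semaphorins. Stromal cells are known as a source of Vegfa for nearby endothelium, and Vegfa mRNA is known to be unstable and under the control of RNA-binding proteins as well as of hypoxia-inducible transcription.

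Sequence upstream of the start site is shown for Vegfa, whose mRNA chose the family, and for Vegfb and Flt1, which had the lowest unadjusted p-values among the other ligands and among the receptors in the IL-17 comparison of the Arid5a RIP. Each run is the 250 bases before the start site, from RefSeq on GRCm38.p6 (the assembly that mm10 names), read 5′ to 3′ on the strand of the gene, which is the minus strand for all 3. They lie at chr17:46032378-46032627, chr19:6987652-6987901 and chr5:147726012-147726261. Capitals mark matches, on either strand, to the GC box GGGCGG or to the kappa-B consensus.
Vegfa: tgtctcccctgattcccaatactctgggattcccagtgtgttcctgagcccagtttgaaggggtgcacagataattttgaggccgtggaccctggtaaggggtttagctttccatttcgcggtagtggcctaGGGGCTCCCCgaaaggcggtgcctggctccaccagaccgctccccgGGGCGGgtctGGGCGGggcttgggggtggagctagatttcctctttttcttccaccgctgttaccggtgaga
Vegfb: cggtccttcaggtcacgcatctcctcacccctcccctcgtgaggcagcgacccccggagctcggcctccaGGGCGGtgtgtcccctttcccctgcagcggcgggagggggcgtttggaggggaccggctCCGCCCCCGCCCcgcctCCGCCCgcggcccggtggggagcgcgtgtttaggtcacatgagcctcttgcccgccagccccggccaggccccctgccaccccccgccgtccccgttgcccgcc
Flt1: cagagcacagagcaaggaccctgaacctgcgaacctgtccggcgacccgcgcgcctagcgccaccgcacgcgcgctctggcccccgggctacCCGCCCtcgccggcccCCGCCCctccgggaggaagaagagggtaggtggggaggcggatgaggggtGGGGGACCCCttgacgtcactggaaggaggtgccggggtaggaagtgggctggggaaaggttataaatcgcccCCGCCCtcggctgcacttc
The Vegfa run held 2 GC boxes, at -72 to -67 and -62 to -57 from the start site, and a kappa-B match at -118 to -109 that reads as a match on both strands. In the Vegfb run there were 4 GC boxes, 3 of them on the opposite strand between -121 and -99, and no kappa-B match. The Flt1 run held 3 GC boxes and a kappa-B match on both strands at -92 to -83, and Kdr was the other member with a kappa-B match (-74 to -65). Among 32851 RefSeq promoters of the same length, 7.25% held the kappa-B consensus and 32.74% held GGGCGG. The hypoxia core ACGTG (16.57% of all promoters), the AP-1 pattern TGANTCA (6.75%) and the C/EBP pattern TTNCGNAA (2.04%) were not in any member's window. Guanine and cytosine made up 59.2% of the Vegfa run and 76.4% of the Vegfb run, against a median of 52.4% over all promoters. A match is a description of letters, not a binding site.

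Library totals ran from 939139 to 5713913 counts, and log2 levels of 2 libraries of a group correlated across genes at 0.818 to 0.968. The IL-17 labels were checked on Cxcl1, a neutrophil chemokine gene, which stood at 8.94 and 6.39 CPM (counts scaled to the library total) in IgG and Arid5a in medium and at 141.8 and 133.6 with IL-17. Stromal markers were high (Col1a1 8427 to 40792 counts per library), but Lum, Dcn and Thy1, also used as stromal markers, reached at most 19, 11 and 22 counts. Of the 8 blood cell markers, Ptprc reached at most 12 counts, while Cd68, Ly6g and Adgre1 reached up to 17, 22 and 24. The summed level of 14 endothelial markers was low and varied between libraries. It was 99.96 to 102.4 CPM in Arid5a in medium, 53.45 to 97.99 in IgG in medium, 71.95 to 84.22 in IgG with IL-17, and 32.13 to 49.97 in Arid5a IL-17 libraries 1 to 3 against 90.6 in library 4. The summed CPM of 1492 olfactory and vomeronasal receptor genes, which most cells do not express, was highest in the same group. It was 3234.5 to 4780.7 in Arid5a in medium, 1987.4 to 3090 in IgG in medium, 2386 to 3373.4 in IgG with IL-17, 1408.4 to 1805.4 in Arid5a IL-17 libraries 1 to 3 and 4062.3 in library 4. Library 4 of the Arid5a IL-17 group thus stood apart from the other 3.

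Levels of different members were compared in FPKM (fragments scaled to library total and gene length). In medium Nrp2 led the family, at 64.75 ± 10.4 (SD, n = 4) in IgG and 62.15 ± 2.20 (n = 4) in Arid5a. Vegfa came next, at 57.9 ± 15.7 and 37.1 ± 4.69 FPKM, and overlapped Nrp2 in IgG but not in Arid5a. Vegfb (31.6 ± 5.30 and 31.2 ± 0.754 FPKM) and Nrp1 (26.0 ± 1.85 and 28.2 ± 1.29 FPKM) followed, and their ranges overlapped in IgG only. Pgf stood at 10.4 ± 5.05 and 14.5 ± 2.696 FPKM and overlapped Vegfd (6.34 ± 2.80 and 10.35 ± 1.16 FPKM) in both antibodies. Flt1 and Kdr, the receptor kinases of blood vessels, lay between 1.05 and 2.48 FPKM on average and overlapped each other, and Vegfc was lowest on average at 0.555 and 0.663 FPKM, overlapping Flt1 in IgG in medium but not Kdr, its neighbour in Arid5a in medium. With IL-17 Vegfa stood first, at 112.5 ± 17.03 FPKM (n = 3) in IgG and 138.4 ± 16.6 (n = 4) in Arid5a, above Nrp2 at 70.5 ± 4.25 and 66.6 ± 7.32 with no overlap in either. The order below Nrp2 was then Vegfb, Nrp1, Pgf and Vegfd in both precipitates, with Flt1, Kdr and Vegfc last. Nrp1 and Pgf overlapped in IgG with IL-17, Flt1 and Kdr overlapped in both, and Vegfc overlapped Flt1 in Arid5a.

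**Figure D1:**
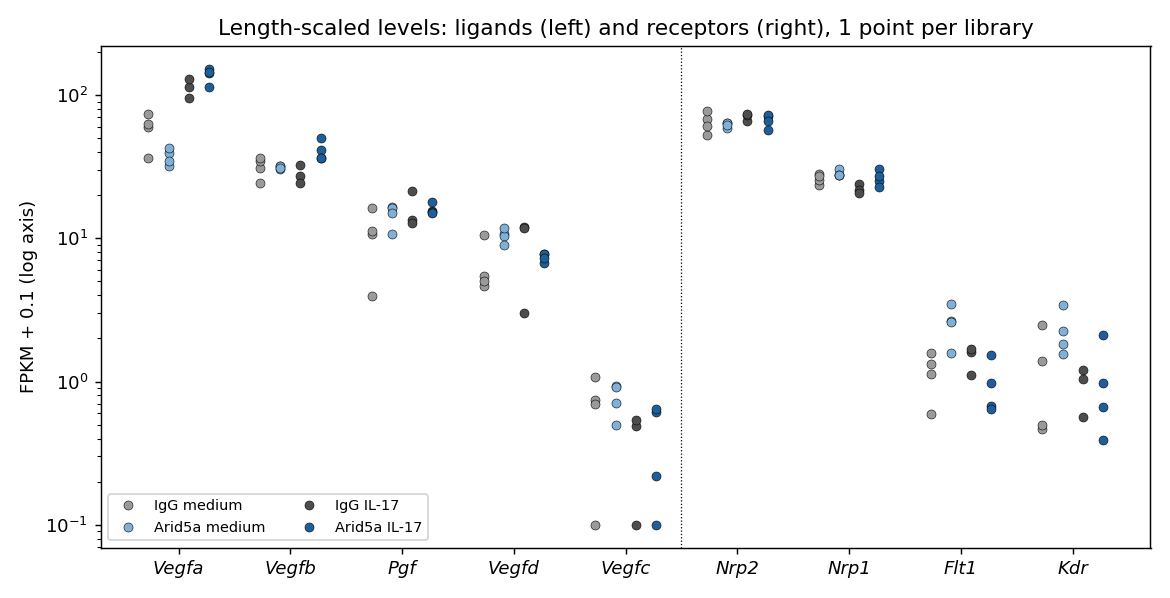
Level of each VEGF family member as FPKM + 0.1 on a log axis, with ligands on the left and receptors on the right and 1 point per library, coloured by group. Vegfa, Nrp2, Vegfb and Nrp1 have the highest mean levels in all 4 groups, though Nrp1 and Pgf overlap in IgG with IL-17. Flt1, Kdr and Vegfc lie lowest.

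The ligands together summed to 106.8 ± 10.2 FPKM in IgG in medium, 93.75 ± 6.81 in Arid5a in medium, 165 ± 11.4 in IgG with IL-17 and 202.5 ± 20.9 in Arid5a with IL-17. Vegfa made up 53.6% ± 10.99 of that sum in IgG in medium and 39.5% ± 3.07 in Arid5a in medium. With IL-17 it made up 67.9% ± 6.35 (n = 3) in IgG and 68.2% ± 2.38 (n = 4) in Arid5a. The share was lower on average in Arid5a in medium, where the ranges overlapped (38.3% to 64.0% in IgG and 35.0% to 41.9% in Arid5a). With IL-17 every Arid5a library (66.2% to 70.7%) lay above every library in medium, while in IgG the groups overlapped, with IgG IL-17 library 4 at 62.5% below IgG medium library 3 at 64.0%. Among the receptors, Nrp1 and Nrp2 made up 95.1% to 98.0% of the summed receptor FPKM in the group means.

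Vegfa lies at chr17:46016993-46032377 and overlaps no other gene model in the RefSeq table. Its level in medium was 115 CPM, 203 CPM, 251 CPM and 188 CPM in the 4 IgG libraries, and 95.8 CPM, 107 CPM, 117 CPM and 103 CPM in the 4 Arid5a libraries. The Arid5a libraries were low and close together, and IgG library 1, the lowest of its group, lay among them. With IL-17, Vegfa stood at 347 CPM, 386 CPM and 327 CPM in the 3 IgG libraries and at 500.4 CPM, 525 CPM, 487 CPM and 346 CPM in the 4 Arid5a libraries. Arid5a libraries 1, 2 and 3 were above every IgG library, and library 4 lay within the IgG range. Library 4 is also the one in that group with the high sums of endothelial markers and of olfactory and vomeronasal genes, and their part in its Vegfa level was not tested. Each of these values rests on 181 to 2543 counts.

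In the Arid5a RIP the mean level of Vegfa went from 105.6 ± 8.96 CPM in medium to 465 ± 80.7 CPM with IL-17 (SD, n = 4 each). The fitted log2 fold was 2.14 ± 0.17 (SE), a 4.40-fold difference, and the groups did not overlap. Of the 17835 genes tested, 15 had a larger log2 fold. In the IgG RIP Vegfa went from 189.5 ± 56.4 CPM (n = 4) to 354 ± 30.0 CPM (n = 3), a log2 fold of 0.91 ± 0.18 (1.87-fold), with no overlap and 1497 genes above it. Groups that do not overlap upward were found for 10.7% of all genes for IL-17 in the Arid5a RIP and for 4.27% in the IgG RIP. The difference between these log2 folds, the interaction by which the family was chosen, was 1.23 ± 0.25, and 424 genes had a larger one. The 5394 well-expressed genes (average log2 CPM of at least 5) had a median interaction of 0.34 and a median IL-17 log2 fold of 0.30 in the Arid5a RIP. With scaling factors taken from those genes alone, the interaction of Vegfa was 0.87 ± 0.22.

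The interaction of Vegfa was made up of a lower level in the Arid5a precipitate in medium and a higher one with IL-17. In medium its log2 fold of Arid5a over IgG was -0.84 ± 0.17, where the median of well-expressed genes was -0.19. With IL-17 it was 0.39 ± 0.18, where that median was 0.15. Without IgG medium library 1 the medium log2 fold was -1.02, and without Arid5a IL-17 library 4 the IL-17 log2 fold was 0.51. With the factors from well-expressed genes they were -0.65 and 0.22. The direction of these log2 folds was the same in every alternative run.

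The average of Arid5a over IgG across both treatments is not the difference that chose the family, and here Vegfa was tested. It rests on the same Vegfa values, so this test is not independent of that choice. Its log2 fold was -0.22 ± 0.12 (edgeR adjusted p = 0.958), which did not pass. None of the 8 members tested was called there by edgeR, DESeq2 or voom, where edgeR called 0.0449% of all genes. An unadjusted p under 0.05 was found for 0 of them and for 5.439% of all genes.

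**Figure D2:**
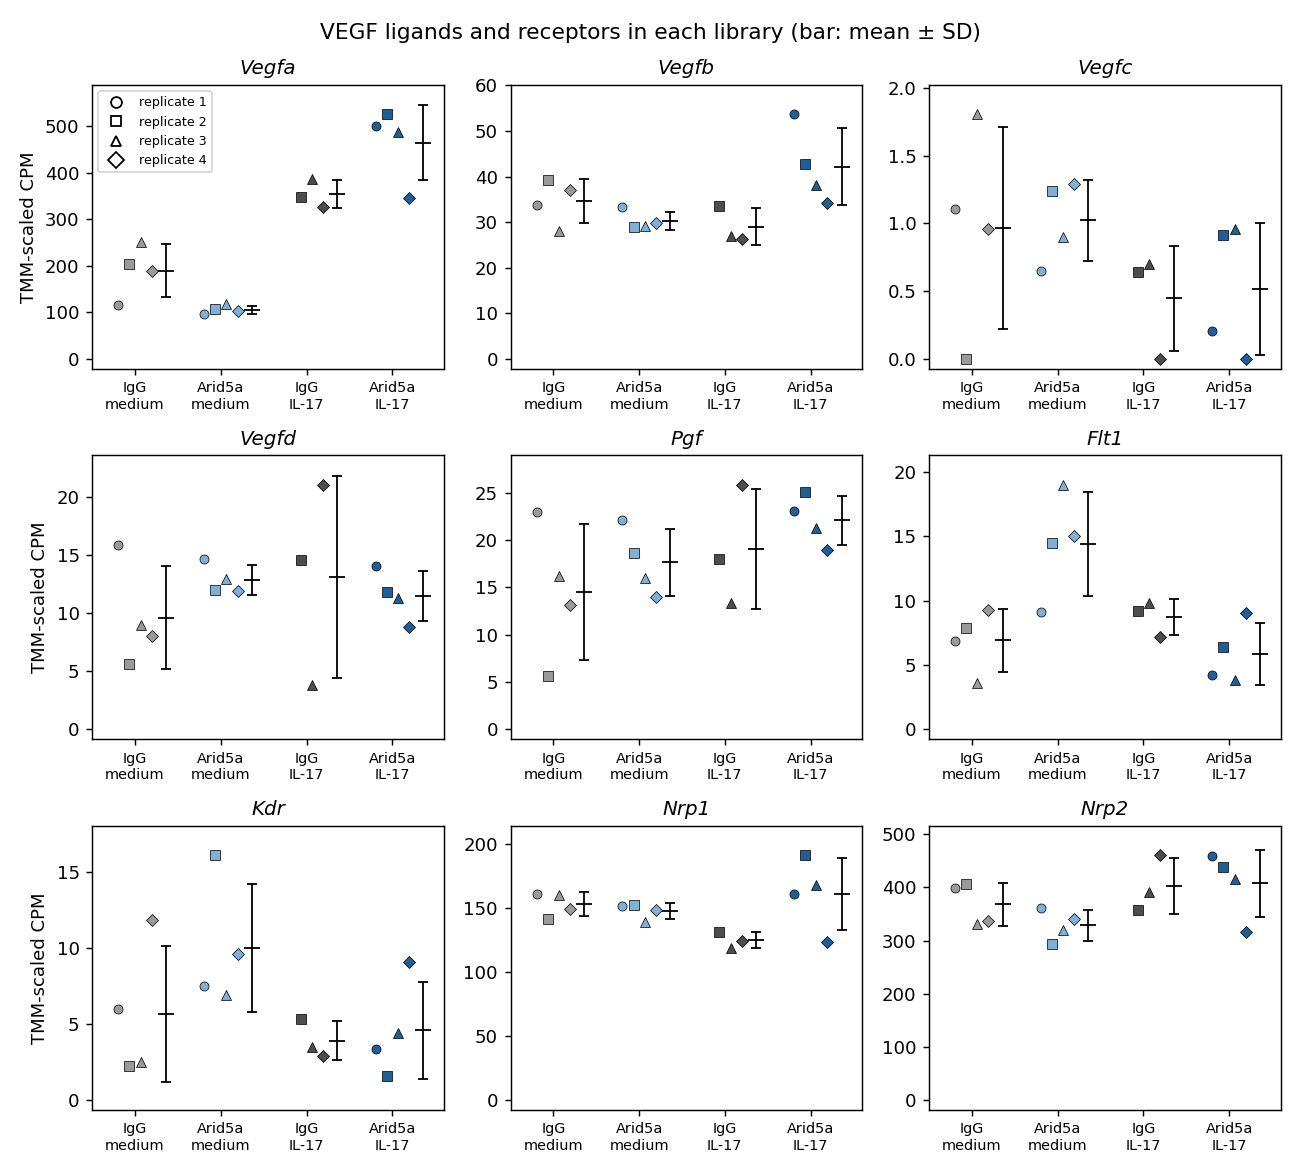
Level of each VEGF family member by library, in TMM-scaled CPM on linear axes that include 0, with 1 point per library, shaped by replicate number, and a bar for the group mean ± SD. Vegfa is higher with IL-17 in both precipitates, and Arid5a IL-17 library 4 is the lowest Vegfa value of its group.

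Vegfb, whose product binds the Flt1 receptor, lies at chr19:6982472-6987651. Its levels in IgG in medium were 33.8 CPM, 39.3 CPM, 28.2 CPM and 37.1 CPM, and those in Arid5a in medium were 33.2 CPM, 28.9 CPM, 29.2 CPM and 29.8 CPM. With IL-17 they were 33.6 CPM, 27.0 CPM and 26.3 CPM in IgG and 53.7 CPM, 42.8 CPM, 38.1 CPM and 34.3 CPM in Arid5a. The lowest Arid5a library with IL-17 lay just above the highest of Arid5a in medium and of IgG with IL-17, but the group overlapped IgG in medium, where 39.3 CPM and 37.1 CPM lay above that lowest library. The log2 fold with IL-17 in the Arid5a RIP was 0.48 ± 0.22 (adjusted p = 0.193), and in the IgG RIP it was -0.23 ± 0.25 (adjusted p = 0.794). Arid5a over IgG with IL-17 was 0.54 ± 0.24 (adjusted p = 0.502), and the interaction was 0.71 ± 0.33 (adjusted p = 0.276). None of these passed the adjusted threshold of 0.05 in edgeR, while voom called the IL-17 difference in the Arid5a RIP (adjusted p = 0.0165). Of all 17835 genes voom called 7442 in that comparison. With factors from well-expressed genes the log2 folds of Vegfb were 0.17 for IL-17 in the Arid5a RIP and 0.37 for the interaction. Groups that do not overlap in this direction were found for 5.30% of all genes for Arid5a over IgG with IL-17, and for 10.7% for IL-17 in the Arid5a RIP.

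Pgf, at chr12:85166637-85177785, encodes placental growth factor. It stood at 23.0 CPM, 5.62 CPM, 16.3 CPM and 13.1 CPM in IgG in medium and at 22.2 CPM, 18.6 CPM, 16.0 CPM and 14.0 CPM in Arid5a in medium. With IL-17 it stood at 17.99 CPM, 13.3 CPM and 25.8 CPM in IgG and at 23.1 CPM, 25.1 CPM, 21.3 CPM and 19.0 CPM in Arid5a. All groups overlapped, and the low IgG value rested on 5 counts in the shallowest library. The log2 fold of Pgf with IL-17 was 0.33 in the Arid5a RIP (95% interval -0.33 to 0.99, adjusted p = 0.560) and 0.30 in the IgG RIP (-0.43 to 1.03, adjusted p = 0.826), so a change of up to about 1 log2 unit upward lies within both intervals.

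The ligands of lymphatic vessels were low. Vegfd, at chrX:164373522-164402650, stood between 5.62 and 15.9 CPM in IgG in medium, 11.9 and 14.7 CPM in Arid5a in medium, 3.85 and 21.1 CPM in IgG with IL-17, and 8.78 and 14.0 CPM in Arid5a with IL-17. The widest spread was in the IgG libraries, and the groups overlapped. Its log2 fold with IL-17 was -0.16 ± 0.42 in the Arid5a RIP (adjusted p = 0.845) and 0.37 ± 0.47 in the IgG RIP (adjusted p = 0.832), where leaving out IgG medium 2 and IgG IL-17 4 turned it to -0.22. Vegfc was the member left out by the filter on low counts, with 0 to 5 counts in a library and 13, 13, 5 and 10 counts over IgG medium, Arid5a medium, IgG IL-17 and Arid5a IL-17. It was at 0 in IgG medium 2, IgG IL-17 4 and Arid5a IL-17 4, where 3 counts would be 3.37, 1.44 and 0.849 CPM. No difference in Vegfc was detectable at this depth.

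Among the receptors, Flt1, which encodes a high-affinity receptor of Vegfa, Vegfb and Pgf, had the largest log2 fold with IL-17 in the Arid5a RIP. The gene lies at chr5:147561604-147726438 and overlaps the model Gm35383, so reads of either could be counted for the other if strand was not used. Its levels were 9.12 CPM, 14.5 CPM, 19.0 CPM and 15.02 CPM in Arid5a in medium and 4.19 CPM, 6.38 CPM, 3.83 CPM and 9.06 CPM in Arid5a with IL-17. The Arid5a groups did not overlap, though the highest IL-17 library, number 4, came close to the lowest in medium. In IgG, Flt1 stood at 6.84 CPM, 7.86 CPM, 3.61 CPM and 9.29 CPM in medium and at 9.21 CPM, 9.81 CPM and 7.18 CPM with IL-17, and these groups overlapped. All of these values rest on 7 to 63 counts. With IL-17 in the Arid5a RIP the log2 fold of Flt1 was -1.30 ± 0.45 (95% interval -2.22 to -0.39, adjusted p = 0.0809). It did not pass in edgeR, and groups not overlapping in that direction were found for 9.25% of all genes.

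The Flt1 difference was called by some of the 27 other settings of the same comparison, and adjusted p ran up to 0.254. DESeq2 gave an adjusted p of 0.0161, limma voom with sample quality weights gave 0.000279, and edgeR with the Arid5a libraries alone gave 0.0142. Over all genes these fits called 1367 of 17835, 7442 of 17835 and 2977 of 15775. Without Arid5a IL-17 library 4 the edgeR adjusted p of Flt1 was 0.0250, and without IgG medium library 2 it was 0.0352. Without IgG medium 2 and IgG IL-17 4 together it was 0.0208. Over all genes these left-out fits called 2257 of 17608, 1822 of 17924 and 2600 of 19071, against 1008 of 17835 with all libraries. Flt1 was not called with other scalings, other filters, the replicate block, the FPKM fits or any other single library left out. Over IgG in medium the log2 fold of Flt1 in Arid5a was 1.07 ± 0.46 (adjusted p = 0.314), and with IL-17 it was -0.59 ± 0.49 (adjusted p = 0.761). Its interaction was -1.66 ± 0.67 (adjusted p = 0.205), opposite in sign to that of Vegfa, which encodes its ligand. The sums of the endothelial markers and of the olfactory and vomeronasal genes given above were also lower in Arid5a IL-17 libraries 1 to 3 than in Arid5a in medium, and their part in the Flt1 values was not tested.

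Kdr, at chr5:75932827-75979072 and overlapping the model Gm32727, followed a like order at 2 to 39 counts per library. It stood at 7.49 CPM, 16.1 CPM, 6.93 CPM and 9.58 CPM in Arid5a in medium and at 3.35 CPM, 1.60 CPM, 4.40 CPM and 9.06 CPM in Arid5a with IL-17, where library 4 overlapped the medium group. In IgG it stood at 5.96 CPM, 2.25 CPM, 2.53 CPM and 11.8 CPM in medium and at 5.35 CPM, 3.50 CPM and 2.87 CPM with IL-17. The log2 fold of Kdr with IL-17 was -1.12 ± 0.58 in the Arid5a RIP (adjusted p = 0.241) and -0.57 ± 0.65 in the IgG RIP (adjusted p = 0.812), with an interaction of -0.55 ± 0.87 (adjusted p = 0.785). Voom, which called 7442 of all 17835 genes there, called the Arid5a difference (-1.38, adjusted p = 0.00766) and edgeR and DESeq2 did not. Of the 13 endothelial markers tested, 0 were called and 0 had a log2 fold above 0 in that comparison, with a median log2 fold of -0.91. An unadjusted p under 0.05 was found for 3 of them and for 22.27% of all genes. The 4 blood cell and 6 epithelial markers tested also had 0 log2 folds above 0, with medians of -1.01 and -0.99. Of 11 stromal markers, 7 had a log2 fold above 0 (median 0.23). The median of all genes tested was -0.12. Of the 14 endothelial markers, 9 had counts in every library, such as Ptprb (11 to 83 counts) and Cdh5 (3 to 61 counts, against 7 to 63 for Flt1), and Pecam1 reached 36 counts and was at 0 in 2 libraries. Their part in the Kdr values was not tested.

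**Figure D3:**
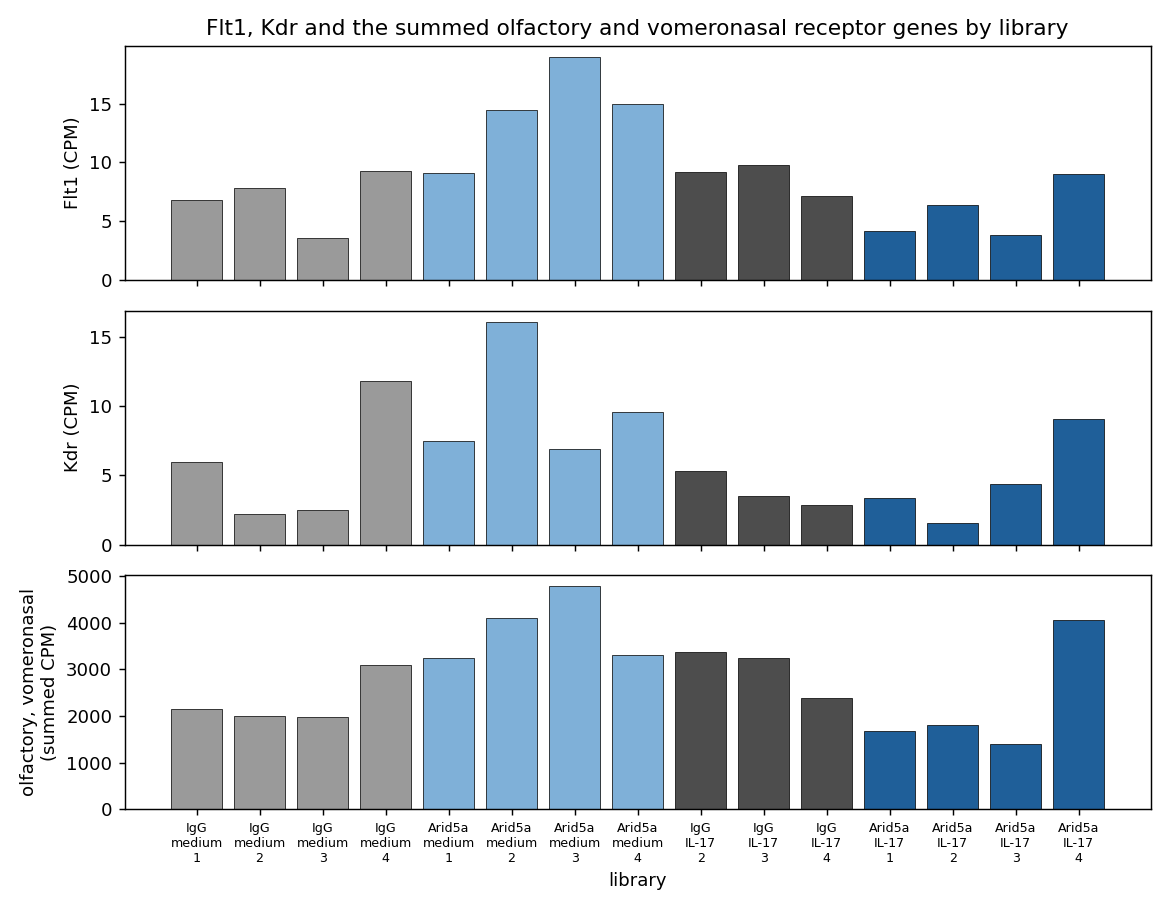
Flt1 (top) and Kdr (middle) in CPM and the summed CPM of olfactory and vomeronasal receptor genes (bottom), with 1 bar per library on linear axes from 0, coloured by group. Arid5a IL-17 libraries 1 to 3 lie below every Arid5a library in medium in all 3 panels, and library 4 is the highest of its group in each.

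The neuropilins carried most of the receptor reads. Nrp1, at chr8:128358591-128505476, ran from 142 to 161 CPM in IgG in medium, 139 to 152 CPM in Arid5a in medium, 119 to 131 CPM in IgG with IL-17 and 123 to 191 CPM in Arid5a with IL-17. The IgG libraries with IL-17 all lay below those in medium, which held for 3.32% of all genes, and the log2 fold was -0.30 ± 0.16 (adjusted p = 0.493). In the Arid5a RIP it was 0.12 ± 0.14 (adjusted p = 0.621), and -0.19 with factors from well-expressed genes, so its direction there depended on the scaling. Arid5a over IgG with IL-17 was 0.36 ± 0.16 (adjusted p = 0.479), which did not pass, and the interaction was 0.42 ± 0.21 (adjusted p = 0.321), or 0.07 with those factors. Nrp1 overlaps Mir1903 and Gm32643.

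Nrp2, at chr1:62703317-62818692, overlaps Gm29083 and 4930487H11Rik. Its levels were 399 CPM, 407 CPM, 331 CPM and 336 CPM in IgG in medium and 362 CPM, 294 CPM, 320 CPM and 341 CPM in Arid5a in medium. With IL-17 they were 357 CPM, 391 CPM and 460.3 CPM in IgG and 459.5 CPM, 438 CPM, 416 CPM and 317 CPM in Arid5a, where library 4 was again the low one and made the groups overlap. The log2 fold in the Arid5a RIP was 0.31 ± 0.14 (adjusted p = 0.177). The median of well-expressed genes was 0.30, and with factors from those genes the log2 fold of Nrp2 was -0.0049. Voom called it (adjusted p = 0.00240), as did edgeR without Arid5a IL-17 library 4 (0.0335). Over all genes these fits called 7442 of 17835 and 2257 of 17608. In the IgG RIP the log2 fold of Nrp2 was 0.13 ± 0.15 (adjusted p = 0.810), and over both precipitates it was 0.22 ± 0.10 (adjusted p = 0.259).

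**Figure D4:**
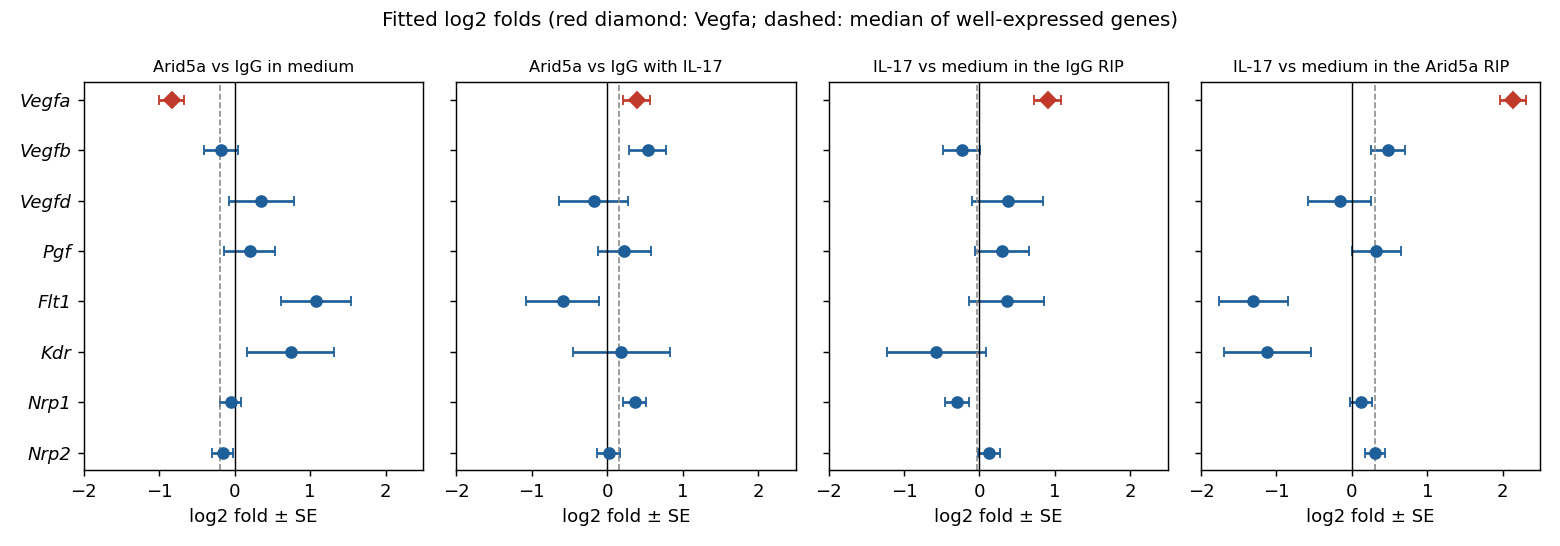
Fitted log2 folds of the 8 members that passed the count filter, with standard errors, in the 4 comparisons of 2 groups; the dashed line is the median of well-expressed genes. Vegfa (diamond), shown without a test, is the highest in both IL-17 comparisons, and Flt1 and Kdr lie lowest in the IL-17 comparison of the Arid5a RIP.

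Counted over the 7 tested members other than Vegfa, edgeR called 0 in each of the 6 comparisons in which they stood beside an untested Vegfa. For IL-17 in the Arid5a RIP, 3 of them (Vegfb, Flt1 and Nrp2) had an unadjusted p under 0.05, where 22.27% of all genes did. DESeq2 called 1 and voom called 4 (Vegfb, Flt1, Kdr and Nrp2). Of all 17835 genes, edgeR called 5.65%, DESeq2 called 1367 and voom called 7442 there. For IL-17 in the IgG RIP, 0 had an unadjusted p under 0.05, where 11.15% of all genes did. Both other tools called 0 members there, and edgeR called 0.493% of all genes. For the interaction, Vegfb and Flt1 had an unadjusted p under 0.05, where 16.29% of all genes did. DESeq2 called 0 members and voom called Flt1. Of all 17835 genes, edgeR called 0.976%, DESeq2 called 405 and voom called 1653 there. For Arid5a over IgG in medium, 1 member (Flt1) had an unadjusted p under 0.05, where 12.78% of all genes did and edgeR called 0.628%. With IL-17, 2 members (Vegfb and Nrp1) had one, where 8.949% of all genes did and edgeR called 0.0673%. DESeq2 and voom called 0 in both. For IL-17 averaged over the antibodies, 1 member (Nrp2) had an unadjusted p under 0.05, where 16.45% of all genes did. DESeq2 and voom called 0 members there, and edgeR called 3.26% of all genes.

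Genes whose log2 CPM varied most like that of Vegfa were ranked among 5393 well-expressed genes over the 15 libraries, which share their groups. Ccl7, a monocyte chemokine gene, had the highest Pearson r, 0.985. Its mean levels were 65.6 and 33.25 CPM in IgG and Arid5a in medium and 159.9 and 239.9 CPM with IL-17. Like Vegfa, it stood lower in Arid5a in medium and higher with IL-17, a pattern that a ranking by r with Vegfa favours. Stx6, a syntaxin gene (0.959), Slc12a2, a sodium, potassium and chloride cotransporter gene (0.958), Il1rl1, the IL-33 receptor gene (0.944), and Fas, a death receptor gene (0.943), followed. With IL-17, Fas stood at 62.5 ± 28.4 CPM (n = 3) in IgG and 66.6 ± 8.23 CPM (n = 4) in Arid5a, within each other's spread. Within the family, r with Vegfa was 0.58 for Nrp2, 0.42 for Vegfb, 0.21 for Pgf, 0.02 for Nrp1, -0.17 for Vegfd, -0.63 for Kdr and -0.64 for Flt1.

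The rest of the pathway was read from 8 lists holding 144 genes, of which 140 were tested. For IL-17 in the Arid5a RIP, 16 were called higher and 0 lower by edgeR, where 4.84% of all genes were called higher. The pathway count fell to 3 with library totals and to 4 with factors from well-expressed genes. Over all genes those fits called 301 and 321 of 17835, against 1008 in the main fit. The pathway count was 79 with voom, which called 7442 of all 17835 genes. It was 4 without Arid5a IL-17 library 2 and 34 without library 4, where 308 of 17806 and 2257 of 17608 genes were called. In the IgG RIP 1 was called higher, Nfatc1, a calcium-dependent transcription factor downstream of Kdr, at 0.76 ± 0.17 (adjusted p = 0.0264), where 0.258% of all genes were called higher. That Nfatc1 call was lost in 7 of 27 alternatives (adjusted p from 0.000835 to 0.16 over all 27): with voom, with only the libraries compared, without IgG medium 4, without any 1 of the IgG IL-17 libraries, and without IgG medium 2 and IgG IL-17 4 together.

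In downstream signalling, 5 of 46 genes were called higher with IL-17 in the Arid5a RIP, where 4.84% of all genes were. Among them were Nfatc1 (0.64 ± 0.16, adjusted p = 0.0124), the kinase gene Prkcd (0.74 ± 0.21, adjusted p = 0.0266) and the small GTPase gene Rac1 (0.53 ± 0.15, adjusted p = 0.0313). Of 17 genes for ligand processing and binding, 3 rose: Ccn2, whose product binds Vegfa (0.79 ± 0.13, adjusted p = 0.000174), the thrombospondin gene Thbs2 (0.61 ± 0.14) and Sparc (0.40 ± 0.12). Among 14 genes of hypoxia control 1 rose, Hif1a, the oxygen-regulated transcription factor subunit (0.73 ± 0.15, adjusted p = 0.00242). Of 16 hypoxia target genes 3 rose, P4ha1, Bnip3 and Ldha, with log2 folds of 0.68, 0.97 and 0.50. Of 10 genes for proteins that bind Vegfa mRNA, Hnrnpa2b1 (0.76 ± 0.13, adjusted p = 0.000435) and Elavl1, which encodes the stabilising protein HuR (0.71 ± 0.18, adjusted p = 0.0134), rose. Among related ligands and receptors, Pdgfa rose (0.80 ± 0.21, adjusted p = 0.0193), and among 14 other angiogenic factors Fgf7 did (1.14 ± 0.13, adjusted p = 3.96e-07). None of 13 neuropilin partners was called, and 1 had an unadjusted p under 0.05, where 22.27% of all genes did. Of 27 alternatives, 14 lost the call of Sparc and of Ldha, 12 Prkcd, 11 Rac1 and Pdgfa, and 9 Bnip3. Nfatc1 and Elavl1 were lost in 8, Thbs2 and P4ha1 in 6, and Hif1a in 4. Hnrnpa2b1 was lost in 2, Ccn2 in 1 and Fgf7 in 0. All named here but those last were lost with library totals and with factors from well-expressed genes, whose median log2 fold was 0.30.

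Averaged over both precipitates, 10 of the 140 pathway genes rose with IL-17 and 0 fell, where 2.60% of all genes were called higher. They included Fgf7 (0.79 ± 0.10, adjusted p = 6.17e-07), Hif1a (0.60 ± 0.11, adjusted p = 0.000922), the glucose transporter gene Slc2a1 (0.93 ± 0.23, adjusted p = 0.0190), Ndrg1 (0.79 ± 0.20, adjusted p = 0.0224) and Hbegf, an EGF-family ligand gene (0.89 ± 0.25, adjusted p = 0.0402). The calls of Fgf7 and Hif1a held in all 26 alternatives, while that of Slc2a1 was lost in 6, that of Ndrg1 in 11 and that of Hbegf in 17, each time including upper-quartile factors, library totals and factors from well-expressed genes. Vegfa, without a test, stood at 1.52 ± 0.12 in that comparison, above each of them. Between the precipitates, Ybx1, the gene of a cold-shock RNA-binding protein, was the pathway gene called higher in Arid5a on average (0.48 ± 0.09, adjusted p = 0.0255), where 0.0392% of all genes were called higher. The Ybx1 call was lost in 9 of 26 alternatives (adjusted p from 0.000485 to 0.106 over all 26): with the replicate block, with both FPKM fits, and without any 1 of IgG medium 3, Arid5a medium 1 or 4, IgG IL-17 2 or 3, or Arid5a IL-17 1. In medium Ppp3r1, P4ha1 and Zfp36l2 were called lower in Arid5a, with log2 folds of -0.69, -0.69 and -0.60 against -0.84 for Vegfa, where 0.572% of all genes were called lower. That count of 3 went to 0 with upper-quartile factors, with factors from well-expressed genes, with the FPKM fits, with only the libraries compared, and without IgG medium 2, IgG medium 3 or any 1 Arid5a medium library, and without IgG medium 2 and IgG IL-17 4 together. It was 1 with library totals, with the replicate block or without IgG medium 4, 5 with voom, 6 without IgG medium 1 and 11 with DESeq2. Of all 17835 genes voom called 152 and DESeq2 called 348 there, against 112 in the main fit. The settings with a count of 0 called 0 to 15 of all genes, save 65 without Arid5a medium 1. Where so few genes are called, a count of 0 says nothing particular about the pathway genes. Library totals called 13 of all genes and the replicate block 49. The fits without IgG medium 4 and without IgG medium 1 called 107 and 350. An unadjusted p between the precipitates with IL-17 was under 0.05 for 14 of the 140 pathway genes and for 8.949% of all genes. In that comparison edgeR called 0 of the 140, DESeq2 called 1 and voom called 6. Of all 17835 genes DESeq2 called 71 and voom called 479 there.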

How the data were processed

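Counts and FPKM were analysed for RIP-seq libraries of ST2 cells. The authors deposited expected counts per gene, unnormalised, and FPKM per gene (scaled to gene length and library total). The submitters' processing notes name STAR 2.7.9, RSEM 1.3.1, DESeq2 1.36.0, R 4.3.0 and mm10, without roles; the annotation and strand setting are not given in the sources used here.

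Expected counts were rounded and fitted with edgeR 4.0.16 in R 4.3.3 (filterByExpr, 17835 of 25239 genes; TMM; robust quasi-likelihood; 4 group means over 15 libraries). A gene was called where the Benjamini-Hochberg adjusted p over all genes tested was below 0.05, by this fit except where the text says otherwise. The biological coefficient of variation common to all genes was 0.341. Totals of 939139 to 5713913 counts set the precision, and floors of 3 counts cover counting error only. CPM are TMM-scaled. In simulated counts the IL-17 comparison in the Arid5a RIP recovered 38 of 100 genes changed 2-fold and 66 of 100 changed 4-fold, and the interaction 8 and 40.

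The members and gene lists were chosen with earlier results of these data known. Named genes were the members, up to 4 called genes of each list by smallest p per comparison, the 5 genes most correlated with Vegfa among well-expressed genes, and Cxcl1 and Nfkbiz as a check of IL-17. Nfkbiz, a gene induced by IL-17, stood at 33.0 and 28.8 CPM in medium and 89.7 and 111 CPM with IL-17 in IgG and Arid5a. Promoters and coordinates came from RefSeq (GRCm38.p6), and all 9 members matched. Summed blood and epithelial markers reached at most 20.98 and 46.67 CPM. Replicate numbers did not pair the libraries: 1 of 21 same-numbered pairs had deviations correlated above 0.1 (median -0.0122, range -0.126 to 0.195). Alternatives were other scalings, DESeq2 1.42.0, limma 3.58.1 voom, other filters, only the groups compared, the replicate block, log2(FPKM + 1) and log2(FPKM + 0.1), and libraries left out.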

Additional observations from a re-analysis of the deposited data

Results flagged for a closer look

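No member was flagged: 0 of 27 groups of 4 libraries held a value farther from its neighbours than Dixon's 95% value of 0.829, and chance flags about 1 in 20 groups. Pathway genes were flagged where the response to IL-17 differed between the precipitates by the interaction test (edgeR, adjusted over all genes). That held for 5 of 140 pathway genes, where 0.976% of all genes were called. These were Ppp3r1, a calcineurin subunit gene (1.04 ± 0.22, adjusted p = 0.0184), Cdc42, a small GTPase gene (0.95 ± 0.23, adjusted p = 0.0383), and the hypoxia target genes P4ha1 (1.02 ± 0.23, adjusted p = 0.0223) and Bnip3 (1.48 ± 0.38, adjusted p = 0.0435). The last was Zfp36l2, which encodes a protein that binds AU-rich mRNA (0.90 ± 0.21, adjusted p = 0.0263). Like Vegfa, all were lower on average in Arid5a than in IgG in medium and higher with IL-17: for Ppp3r1 the IgG and Arid5a means were 199.5 and 123.2 CPM in medium, then 130.5 and 167.2 CPM after IL-17. The interaction that picked these genes favours this pattern. The median log2 fold of well-expressed genes was also below 0 in medium (-0.19) and above it with IL-17 (0.15). No pathway gene was called in the interaction under upper-quartile factors, library totals or factors from well-expressed genes, where 0 of all 17835 genes were called. None was called in the FPKM fits either, which called 6 and 2 of all genes. Where so few genes are called, a count of 0 says nothing particular about the pathway genes. With the replicate block 2 were called, where 85 of all genes were. None of the 5 was called without IgG medium 3, Arid5a medium 2 or 3, IgG IL-17 2, or Arid5a IL-17 1 or 2, each left out alone. Those fits called 0 to 20 of all genes. Without Arid5a IL-17 4, 13 pathway genes were called, where 715 of all 17608 genes were.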

How the results depend on the processing

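In 179 of 186 alternative counts, members called (Vegfa untested) stayed at 0. Many of these settings called few genes in the whole table, so a count of 0 was likely there whatever the members did. The interaction called 0 of 17835 genes with upper-quartile factors, library totals or factors from well-expressed genes. For IL-17 in the Arid5a RIP the count was 1 with DESeq2, 4 with voom and 1 with only the groups compared. Over all genes these fits called 1367, 7442 and 2977, against 1008 in the main fit. The count was 1 without IgG medium 2 and IgG IL-17 4 together, where 2600 of all genes were called. With each library left out it was 0 to 2. It was 1 without IgG medium 2 (1822 of all genes called) and 2 without Arid5a IL-17 4 (2257 called). For the interaction the count was 1 with voom, which called 1653 of all genes. With the replicate number as a block 0 members were called in each comparison, the interaction of Vegfa was 1.28, and pathway genes called were 12 for IL-17 in the Arid5a RIP against 16 without the block, 2 for the interaction against 5, 1 for Arid5a over IgG in medium against 3 (P4ha1 and Zfp36l2 were lost) and 0 for the average over treatments against 1; same-numbered libraries share only a number. Over all genes the block fit called 784, 85, 49 and 4 in the same comparisons and order, against 1008, 174, 112 and 8 without the block. Of 56 member log2 folds, 39 kept their sign in every alternative and 17 did not. None of those 17 was called by edgeR on all libraries. The interaction of Vegfa ran from 0.87 to 1.42 and its IL-17 log2 fold in the Arid5a RIP from 1.82 to 2.25. Counts of pathway genes called moved by over 1.5 times in 84 of 186 alternatives. For IL-17 averaged over antibodies they ran from 6 to 19 with a library left out. The fits at those ends, without Arid5a IL-17 2 and without Arid5a IL-17 4, called 286 of 17806 and 1005 of 17608 genes. Depth limits Vegfc (0 to 5 counts), Kdr and Flt1 most.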
